A study of Mus musculus with 8 samples.

Results

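The comparison asked whether macrophages treated with siRNA against GABP (siGABP) responded to Kdo2 lipid A (KLA) to the same extent as macrophages treated with scrambled siRNA (siCtrl). It used 4 of the 8 Illumina mouse expression arrays of the experiment: siGABP cells after 6 h of KLA, siGABP cells left untreated, siCtrl cells after 6 h of KLA and siCtrl cells left untreated, with 1 array each. The other 4 arrays held macrophages with siRNA against MLL (siMLL), 1 after KLA and 3 untreated. All cells were peritoneal macrophages elicited with thioglycollate in C57BL/6 mice, and the labels give neither the age of the mice nor the number pooled for an array. The sources used here do not say which GABP subunit the siRNA matched, and the cells were transfected primary cells, not a knockout line.

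KLA is the lipid A part of endotoxin with Kdo sugars attached, made as a pure compound, and it activates Toll-like receptor 4 (TLR4). One arm of TLR4 signalling runs through MyD88 to NF-kB and MAP kinases and switches on cytokine genes. The other arm runs through TRIF to IRF3 and interferon beta, which then acts back on the cell through its receptor and switches on the interferon-stimulated genes. GABP is a transcription factor of the ETS family, built from a DNA-binding alpha subunit, encoded by Gabpa, and a beta subunit, encoded by Gabpb1 or Gabpb2. It is best known for the promoters of genes for mitochondria and for ribosomes.

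For each gene, the KLA response was the log2 intensity after KLA minus that in untreated cells, after background correction. The intensities printed for single arrays are the deposited ones, before that correction, so folds taken from them differ from the printed differences (for Cxcl2 -0.90 against -1.07, and for Thbs1 1.08 against 1.32). The difference in response was the response in siGABP cells minus the response in siCtrl cells, in log2 units. For a gene that KLA raised in both, a value of -1 thus means that the rise was 2-fold smaller in siGABP cells. For a gene that KLA lowered in both, it means that the fall was 2-fold larger in siGABP cells. The same number is the siGABP minus siCtrl difference after KLA less that in untreated cells. A difference was said to come from the KLA level when the siGABP minus siCtrl difference after KLA was at least 2 times as large as the untreated one, from the untreated level in the opposite case, and from both otherwise. The siGABP and siCtrl groups have no replicates. The standard errors (SE) and p-values, from limma, take the spread of the 3 siMLL untreated arrays as the spread of every array, and a gene was called at a Benjamini-Hochberg adjusted p under 0.05 over all 8793 genes tested. It is not known whether those 3 arrays hold separate cultures, so the p-values may measure technical spread only.

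Gabpa, the gene of the DNA-binding subunit, was lower in siGABP cells at both levels on its brightest probe. It read 157 after KLA and 127 untreated in siGABP cells, against 318 after KLA and 202 untreated in siCtrl cells. The siMLL arrays read 275 after KLA and 186, 180.1 and 187.5 untreated, so both siGABP arrays were below all others of the same treatment. The siGABP minus siCtrl difference was -1.20 after KLA (adjusted p = 0.0064) and -0.84 in untreated cells (adjusted p = 0.0179). The difference in response was -0.36 ± 0.137 (95% interval -0.67 to -0.04; adjusted p = 0.56), and its sign turned with the median of all Gabpa probes (0.17). The other Gabpa probes gave differences in response of 0.22 and -0.12 at intensities between 128 and 179, close to the median of the array (139.5). On these probes the siGABP minus siCtrl difference was 0.06 and -0.44 after KLA, and -0.15 and -0.32 in untreated cells. The sizes on the brightest probe thus rest on that probe alone. Gabpb1 went the other way at each level. It read 968 after KLA and 414 untreated in siGABP cells, against 514 after KLA and 226 untreated in siCtrl cells, which is higher by 0.96 after KLA (adjusted p = 0.0064) and by 0.98 in untreated cells (adjusted p = 0.0118). Its difference in response was -0.02 ± 0.134 (95% interval -0.33 to 0.29), a value close to 0 whose sign turned in 3 alternatives, with 0.53 on a dimmer probe. No Gabpb2 probe passed the filter on dim probes.

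The KLA responses of the siGABP and siCtrl cells, which share no array, were close to each other. Across the 8793 genes they correlated at 0.946, a description over genes that share probes and normalization and are not independent replicates. KLA changed 3463 genes in siGABP cells and 3615 genes in siCtrl cells at the adjusted threshold. The siGABP and siCtrl levels themselves differed in 607 genes after KLA (6.9%, 3.56% higher and 3.34% lower) and in 109 genes in untreated cells (1.24%, 0.694% higher and 0.546% lower). Without siMLL replicate 3 these counts were 336 and 40, and without siMLL replicate 2 they were 1209 and 208. At an unadjusted p under 0.05 the shares were 26.9% after KLA (12.4% higher and 14.5% lower) and 15.2% in untreated cells (7.67% higher and 7.56% lower). Only Slc2a6, which encodes the GLUT6 member of the facilitative sugar transporter family, was called for a difference in response (1 gene, 0.0114% of those tested), and it was lower. No gene was called with a larger value in siGABP cells in limma, in which the smallest adjusted p on that side was 0.0933. At an unadjusted p under 0.05, 747 genes (8.5%) differed in response, 318 (3.62%) with a positive and 429 (4.88%) with a negative difference. A gene of median precision had an SE of 0.149 and a 95% interval of ±0.348, and a gene at that SE would have needed a difference of 1.67 to be called by this rule. SEs lay between 0.131 and 0.459, so the size that could be detected varied between genes.

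**Figure D1:**
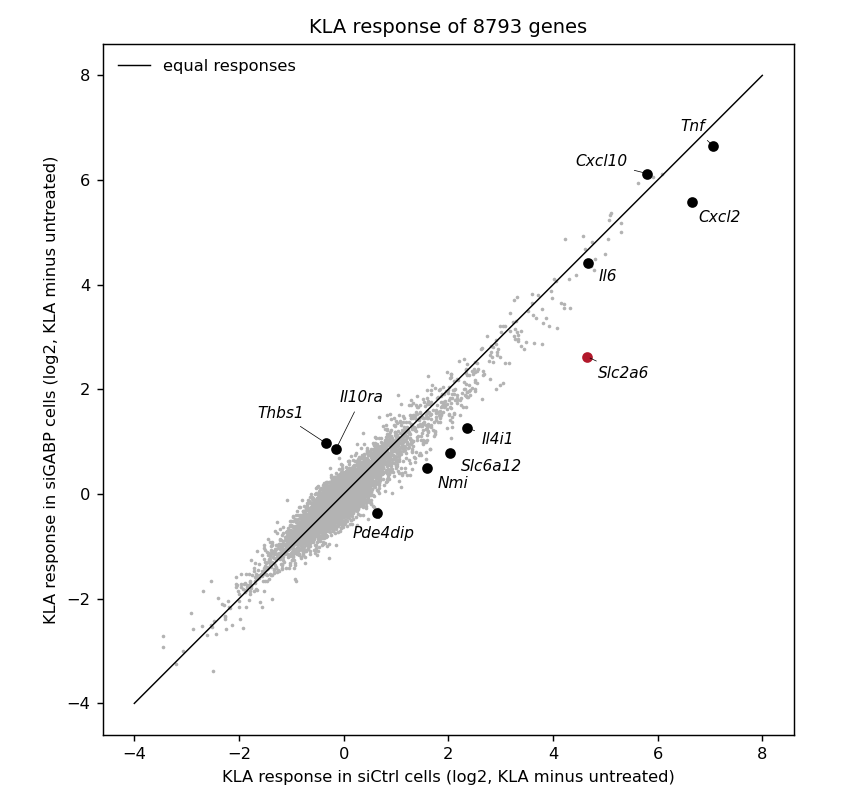
KLA response (log2, KLA minus untreated) in siGABP cells on the vertical axis and in siCtrl cells on the horizontal axis, with 1 point for each of the 8793 genes tested and the line of equal responses. Slc2a6 (red) lies below the line at 2.63 in siGABP cells and 4.64 in siCtrl cells, while Cxcl10, Tnf and Il6 lie closer to the line.

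Slc2a6 differed because of the untreated cells. After KLA its intensity was 11228 in siGABP cells, 12732 in siCtrl cells and 13099.6 in siMLL cells. In untreated cells it was 1844 in siGABP cells, against 541 in siCtrl cells and 1699, 1570 and 1679.5 on the siMLL arrays. The siCtrl untreated array thus stood below the other 4 untreated arrays, while the 3 KLA arrays lay near each other. The KLA response was 6.18-fold in siGABP cells and 8.09-fold in siMLL cells, against 25.02-fold in siCtrl cells. The difference in response was -2.02 ± 0.147 (SE; 95% interval -2.36 to -1.68; adjusted p = 0.0112). The siGABP minus siCtrl difference was -0.18 after KLA (adjusted p = 0.30) and 1.83 in untreated cells (adjusted p = 0.000876). Against the siMLL response, which uses the same siGABP arrays, the Slc2a6 difference was -0.39 ± 0.134 (adjusted p = 0.63), and no gene was called in that comparison (0% of 8793, with 686 genes or 7.8% at an unadjusted p under 0.05 in limma, 3.73% positive and 4.07% negative). Slc2a6 was not called with a smaller background offset (-2.09, adjusted p = 0.0874), nor in a model that gives siCtrl and siMLL cells 1 shared KLA response (-1.04, adjusted p = 0.65).

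The promoter of Slc2a6 is shown because it is the gene called. The RefSeq window of GRCm38.p6, at chr2:27027949-27028248 on the minus strand, runs from 250 bases before to 50 bases after the gene start. It holds no match on either strand to CCGGAAG, the core that GABP and other ETS factors bind.
Slc2a6: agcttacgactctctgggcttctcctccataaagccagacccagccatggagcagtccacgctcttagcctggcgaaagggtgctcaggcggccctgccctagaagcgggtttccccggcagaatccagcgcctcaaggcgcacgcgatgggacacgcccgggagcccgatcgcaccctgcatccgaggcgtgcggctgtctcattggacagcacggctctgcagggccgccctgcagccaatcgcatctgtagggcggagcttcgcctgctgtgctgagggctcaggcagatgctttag
Of the genes tested, 7212 had a RefSeq promoter window, and 19.8% of these held CCGGAAG. Among genes with a difference in response of 1.5-fold or more, the share was 4 of 21 (19%) for positive and 10 of 91 (11%) for negative differences. A missing match says only that these letters are not in the window.

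The other genes among the 5 with the smallest p-values in each direction were not called, and their values are given as measured. Slc6a12, a transporter of betaine and GABA, read 1049 after KLA and 626 untreated in siGABP cells, against 1294 after KLA and 340.1 untreated in siCtrl cells. Its siMLL values were 1299 after KLA and 669.5, 627 and 705 untreated, so the siCtrl untreated array was again the lowest of the 5. The difference in response was -1.26 ± 0.161 (adjusted p = 0.17) and came from the untreated level. Cxcl2, a chemokine for neutrophils, read 11834 after KLA and 280.4 untreated in siGABP cells, against 12155 after KLA and 154 untreated in siCtrl cells. The siMLL arrays gave 10650 after KLA and 215, 214 and 205 untreated, between the siGABP and siCtrl untreated values. The difference for Cxcl2 was -1.07 ± 0.139 (adjusted p = 0.17), with 1.03 in untreated cells (adjusted p = 0.0118) and -0.04 after KLA (adjusted p = 0.84).

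Rin3 and Ndrg1 differed at the KLA level. Rin3, a guanine nucleotide exchange factor for Rab5, read 393 after KLA and 871 untreated in siGABP cells, against 693 after KLA and 839.5 untreated in siCtrl cells. It read 512 in siMLL cells after KLA, so the 3 KLA arrays were spread out while the untreated arrays lay between 716 and 871. The difference in response was -0.93 ± 0.133 (adjusted p = 0.20), and the siGABP level after KLA was lower (-0.88, adjusted p = 0.00717). Ndrg1, a gene known to rise in hypoxia, read 603 after KLA and 724 untreated in siGABP cells, against 1234 after KLA and 799 untreated in siCtrl cells. The siMLL value after KLA was 699.6, close to the siGABP one, and the siCtrl array was the one that stood apart. Its difference was -0.93 ± 0.137 (adjusted p = 0.20), and a second Ndrg1 probe gave -0.78.

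On the positive side, Thbs1, which encodes the matrix glycoprotein thrombospondin-1, had the smallest p. It read 263 after KLA and 150.1 untreated in siGABP cells, against 144 after KLA and 174 untreated in siCtrl cells. The siMLL arrays read 186 after KLA and 136, 129.8 and 129.5 untreated. The responses of siGABP and siCtrl cells had opposite signs, 0.97 and -0.34, and the difference of 1.32 ± 0.142 (adjusted p = 0.0933) came from the KLA level, where siGABP cells were higher (1.05, adjusted p = 0.0064). A second Thbs1 probe gave 0.72. Igsf8, a membrane protein of the immunoglobulin superfamily, read 479.5 after KLA and 194 untreated in siGABP cells, against 259 after KLA and 175 untreated in siCtrl cells. The siMLL value after KLA was 273, so the siGABP array was the high one, and the difference was 0.80 ± 0.138 (adjusted p = 0.26) against siCtrl and 0.67 ± 0.126 against siMLL (adjusted p = 0.63).

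Il10ra, Angptl4 and Gadd45a also had positive values, which came from the untreated level. Il10ra, the ligand-binding chain of the interleukin-10 receptor, read 828 after KLA and 471 untreated in siGABP cells, against 871 after KLA and 959 untreated in siCtrl cells. The siMLL untreated arrays read 470.2, 515 and 454, beside the siGABP value. The difference in response was 1.01 ± 0.167 (adjusted p = 0.26), and the untreated siGABP level was lower (-1.08, adjusted p = 0.0171). Angptl4, an inhibitor of lipoprotein lipase, had a difference of 0.97 ± 0.176 (adjusted p = 0.26), and a second probe gave -0.02. Gadd45a, a stress-induced gene, read 784 after KLA and 2418 untreated in siGABP cells, against 713 after KLA and 3991 untreated in siCtrl cells. The difference was 0.87 ± 0.159 (adjusted p = 0.26). The Gadd45a siMLL arrays read 2964.5, 3195.3 and 2842.4 untreated, between the siGABP and siCtrl values. For Slc2a6, Slc6a12, Cxcl2, Il10ra, Angptl4 and Gadd45a alike, the siCtrl untreated array was the lowest or the highest of the 5 untreated arrays. For Slc2a6, Cxcl2 and Gadd45a the siGABP untreated array was at the other end. Genes with a large untreated difference must tend to have 1 of these arrays at the end, so this tests nothing.

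**Figure D2:**
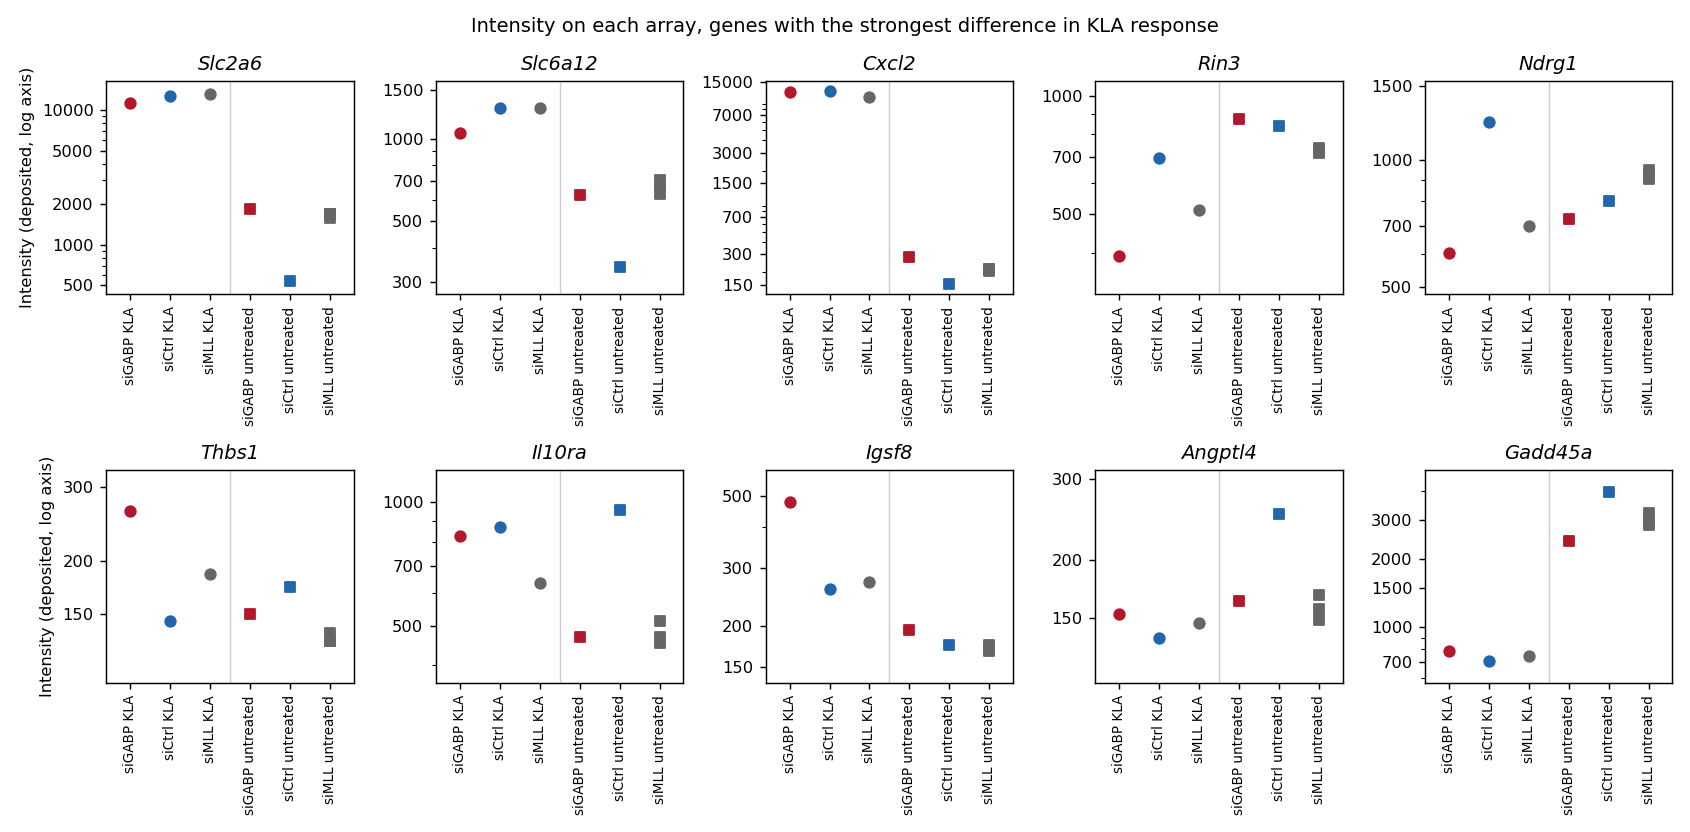
Deposited intensity (log axis) on each of the 8 arrays for 10 genes, the 5 with the smallest p-values in each direction. KLA arrays are circles on the left and untreated arrays are squares on the right of each panel. The order is siGABP (red), siCtrl (blue) and siMLL (grey, 3 untreated arrays). In Slc2a6, Slc6a12 and Il10ra the siCtrl untreated array stands apart from the other untreated arrays, and in Igsf8 and Rin3 the siGABP KLA array stands at the end of the KLA arrays.

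A difference in response of 2-fold or more was measured for 8 genes (0.091% of those tested), 6 negative (0.0682%) and 2 positive (0.0227%). The count depends on the background correction, with 4 genes without it, 19 with an offset of 16 and 2 with an offset of 100, in place of the offset of 50 used here. Cxcl2 (-0.90), Il10ra (0.96), Nmi (-0.89) and Pde4dip (-0.92) fell short of 2-fold without the correction. Beside Slc2a6, Slc6a12, Cxcl2, Thbs1 and Il10ra these were Il4i1, Nmi and Pde4dip, which are named here after their values were seen. Il4i1, an L-amino acid oxidase secreted by myeloid cells, read 276 after KLA and 134 untreated in siGABP cells, against 573 after KLA and 138 untreated in siCtrl cells. Its siMLL level after KLA was 252.5, lower still, so that the difference of -1.09 ± 0.162 (adjusted p = 0.20) rested on the siCtrl KLA array. Pde4dip, a scaffold protein of the Golgi and centrosome, had a difference of -1.001 ± 0.174 (adjusted p = 0.26) from both levels, and its second probe gave -0.20.

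Of the 8793 genes, 137 (1.56%) had a difference of 1.5-fold or more, 30 positive (0.341%) and 107 negative (1.22%). This count was 100 without background correction, 307 with an offset of 16 and 83 with an offset of 100, with more negative than positive genes in each. Of the 107 negative ones, 80 came from the KLA level, 15 from the untreated level and 12 from both. Of the 30 positive ones, 20 came from the KLA level, 7 from the untreated level and 3 from both. In form, 61 of the 107 negative genes had a smaller rise in siGABP cells, 19 a larger fall and 27 a response of opposite sign. The 30 positive genes comprised 9 with a larger rise, 10 with a smaller fall and 11 with opposite signs. Over all genes the siGABP minus siCtrl differences spread more after KLA (SD 0.262) than in untreated cells (SD 0.199).

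The place of the siGABP and siCtrl arrays among all arrays of the same treatment was recorded for these genes, since the siMLL arrays do not enter the difference. Of the 22 genes from the untreated level, the siGABP untreated array was the outermost of the 5 untreated arrays in 15 (68.2%) and the siCtrl untreated array in 19 (86.4%). Over all genes tested these shares were 45.4% for siGABP and 48.6% for siCtrl. Of the 100 genes from the KLA level, the siGABP KLA array was the outermost of 3 in 93 and the siCtrl KLA array in 95, against 71.4% and 70.1% of all genes. Genes with a large difference must tend to have 1 of these arrays at the end, so the shares describe the genes and test nothing.

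**Figure D3:**
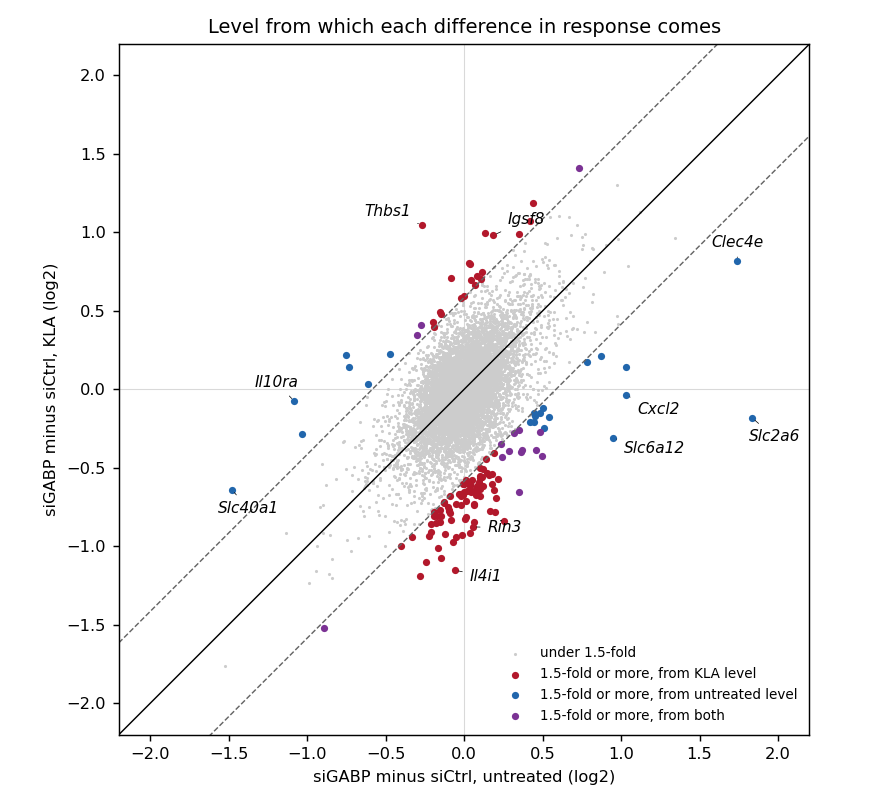
siGABP minus siCtrl difference (log2) after KLA on the vertical axis and in untreated cells on the horizontal axis for the 8793 genes. Genes outside the dashed lines have a difference in response of 1.5-fold or more and are coloured by the level it came from (KLA 100 genes, untreated 22 genes, both 15 genes), with Slc2a6 at the far right near 0 on the vertical axis.

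The standard TLR4 target genes had differences from -1.07 to 0.32, and none was called. Cxcl2, described above, was the lowest. Tnf, the cytokine tumour necrosis factor, read 18598 after KLA and 217 untreated in siGABP cells, against 17232 after KLA and 162 untreated in siCtrl cells. Its response was 101-fold in siGABP cells, 133-fold in siCtrl cells and 96.5-fold in siMLL cells. The difference was -0.40 (95% interval -0.74 to -0.07; unadjusted p = 0.0248 and adjusted p = 0.54 in limma), from the untreated level. Il6, another inflammatory cytokine, gave -0.24 (95% interval -0.59 to 0.10). Ptgs2, the inducible cyclooxygenase, gave -0.37 (-0.73 to -0.01), and Relb, an NF-kB subunit, gave -0.37 (-0.78 to 0.04). Il1b, which encodes interleukin-1 beta, gave 0.15 (-0.28 to 0.57).

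Slc7a11, the cystine transporter of the antioxidant response, gave -0.00 (-0.34 to 0.34). Nos2, the inducible nitric oxide synthase, gave -0.20 (-0.56 to 0.16) and 0.10 on a dimmer probe, and the interferon-induced exonuclease gene Isg20 gave -0.28 (-0.68 to 0.13). Cxcl10, an interferon-induced chemokine, gave 0.32 (-0.08 to 0.73). It read 7314 after KLA and 137.5 untreated in siGABP cells, against 8219.7 after KLA and 179.9 untreated in siCtrl cells, and the siMLL untreated arrays read 121, 116 and 129.6. The intervals of Il6, Relb, Nos2, Isg20, Il1b, Slc7a11 and Cxcl10 include 0 and leave room for differences of up to 0.78 in size, so an equal response was not shown for them.

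Genes that KLA induced had a lower median difference than the rest of the array. To sort them without the arrays compared, genes were grouped by their response in siMLL cells. The 418 genes with a response of 1 or more in siMLL cells had a median difference of -0.14, 66.3% of them were negative, and 24.2% were negative at an unadjusted p under 0.05, against 4.88% of all genes tested. Their median response was 1.61 in siGABP cells, against 1.76 in siCtrl cells and 1.64 in siMLL cells. The 223 genes with a response of -1 or less had a median difference of 0.04, with 40.8% negative, and the 8152 genes between had a median near 0, with 49.9% negative.

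Among the gene lists, the interferon-stimulated genes had the lowest median difference, -0.35 over 38 measured genes, against -0.00 over all genes. Of the 42 on the array, 38 passed the intensity filter. The difference was negative in 33 of the 38 (86.8%, against 50.4% of all genes tested), and 20 of them (52.6%) had an unadjusted p under 0.05, while none was called. The median response was 2.24 in siGABP cells, against 2.61 in siCtrl cells and 2.60 in siMLL cells. Of the 20, 9 came from the untreated level, 6 from the KLA level and 5 from both.

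Over the list as a whole, the larger part lay at the untreated level. In untreated cells the median intensity of the 38 genes was 607.5 in siGABP cells, against 495 in siCtrl cells and 368, 379 and 384 on the siMLL arrays. After KLA it was 4499 in siGABP cells, against 4374 in siCtrl cells and 4178 in siMLL cells. The siGABP untreated array was the highest of the 5 untreated arrays for 32 of the 38 genes (84.2%), against 20.6% of all genes tested, and it was the lowest for none of them. The median siGABP minus siCtrl difference was 0.22 in untreated cells and -0.04 after KLA. At the adjusted threshold 4 of the 38 genes were higher in untreated siGABP cells (10.5%, against 0.694% of all genes tested) and none was lower. After KLA, 3 were higher and 4 were lower (7.89% and 10.5%, against 3.56% and 3.34% of all genes tested).

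The genes higher in untreated siGABP cells were Ifi27l2a, Irf7, Ifit3 and Oasl2, and they are named with Rsad2, Ifih1, Mx1, Oasl1, Gbp5 and Ifi35 after their values were seen. Irf7, the transcription factor that amplifies the interferon response, read 2276 after KLA and 1017 untreated in siGABP cells, against 1713 after KLA and 533 untreated in siCtrl cells. Its siMLL values were 1636 after KLA and 611, 600.1 and 628.5 untreated, so the siGABP arrays were the highest of each treatment. It was higher by 0.98 in untreated cells (adjusted p = 0.0118) and by 0.42 after KLA (adjusted p = 0.0457). Ifit3, an antiviral gene of the IFIT family, read 9457 after KLA and 839 untreated in siGABP cells, against 8174 after KLA and 473 untreated in siCtrl cells. The siMLL untreated arrays read 314, 352 and 312, below both. Its untreated level was higher by 0.87 (adjusted p = 0.0274), and the KLA level differed by 0.21 (adjusted p = 0.31). The other Ifit3 probes disagreed with each other. The brighter of them gave 0.79 untreated and 0.21 after KLA, while the dimmer, at 1605 after KLA in siGABP cells and 2845 in siCtrl cells, gave 0.27 untreated and -0.84 after KLA, which puts its difference of -1.11 at the KLA level.

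Ifi27l2a and Oasl2 were higher at both levels. Ifi27l2a, a small interferon-induced protein, read 4393.5 after KLA and 4944 untreated in siGABP cells, against 2272 after KLA and 1969 untreated in siCtrl cells. The siMLL arrays lay between, at 3557 after KLA and 3529, 3304 and 3514 untreated. Oasl2, of the oligoadenylate synthetase family, was higher by 0.65 in untreated cells (adjusted p = 0.0335) and by 0.45 after KLA (adjusted p = 0.0391). Rsad2, which encodes the antiviral enzyme viperin, read 3046 untreated in siGABP cells, against 2149.9 in siCtrl cells and 1786, 2046.5 and 1795 on the siMLL arrays. Its difference in response was -0.76 ± 0.176 (unadjusted p = 0.00292), from the untreated level, where siGABP cells differed by 0.51 (adjusted p = 0.11).

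The 4 interferon-stimulated genes lower after KLA at the adjusted threshold were Nmi, Ifi47, Gbp2 and Ifih1, and their difference came from the KLA level. Nmi, an interferon-induced gene, read 161 after KLA and 124 untreated in siGABP cells, against 262 after KLA and 109 untreated in siCtrl cells. The siMLL value after KLA was 217, between the siGABP and siCtrl ones. The difference was -1.09 ± 0.190 (adjusted p = 0.26), and the KLA level was lower (-0.84, adjusted p = 0.0183). Ifi47, an interferon-induced GTPase, read 5433 after KLA in siGABP cells, against 7883 in siCtrl cells and 5845 in siMLL cells (-0.54, adjusted p = 0.0282). Gbp2, a guanylate-binding protein, read 239.8 after KLA in siGABP cells, against 357 in siCtrl cells and 284 in siMLL cells (-0.65, adjusted p = 0.0188). Ifih1, which encodes the RNA sensor MDA5, differed by -0.68 after KLA (adjusted p = 0.0203) and by -0.09 in untreated cells. Cxcl10 had the highest difference of the 38, described above, which turned to -0.10 with 1 shared response of siCtrl and siMLL cells, and Mx1, Oasl1, Gbp5 and Ifi35 lay between 0.05 and 0.07.

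**Figure D4:**
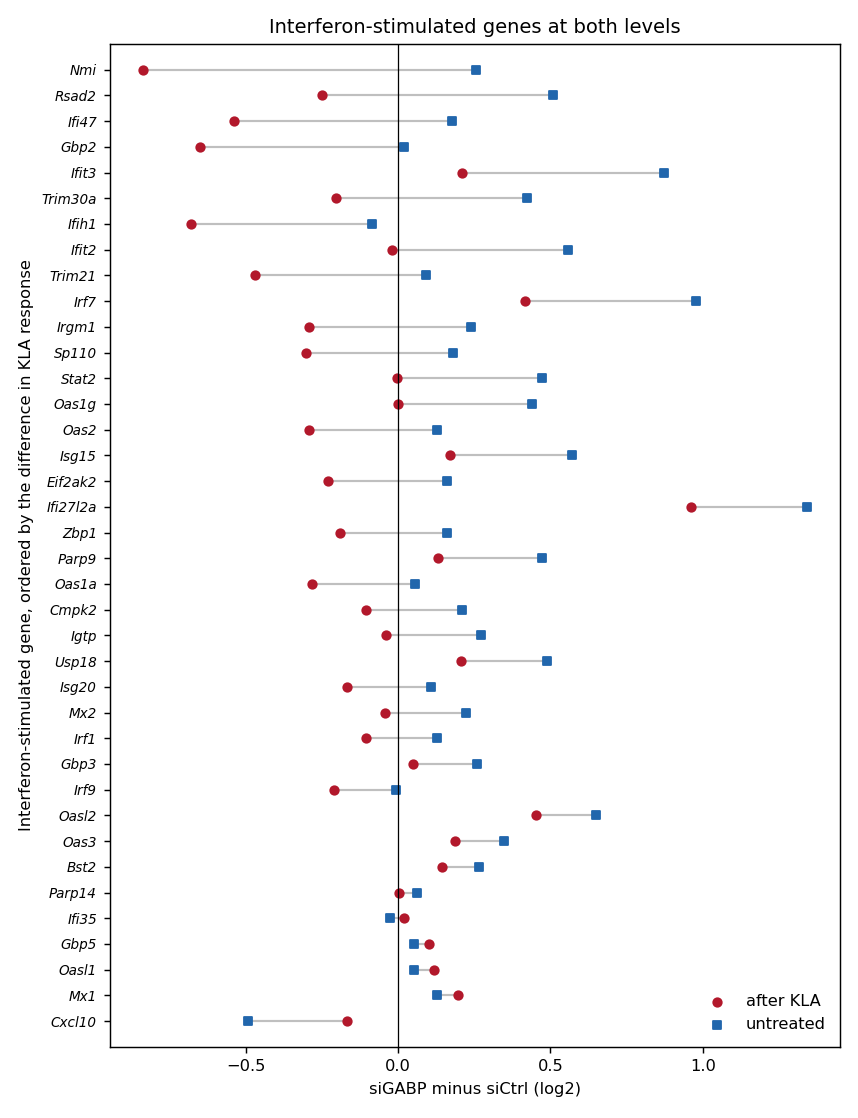
siGABP minus siCtrl difference (log2) after KLA (red circles) and in untreated cells (blue squares) for the 38 interferon-stimulated genes measured, ordered from the lowest difference in KLA response at the top. The untreated square lies to the right of 0 for 34 of the 38 genes, and the KLA circle lies to the left of it for 22 genes.

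Promoters of interferon-stimulated genes are shown because these genes carried the lowest list median. The motif searched, on both strands, was the core of the interferon-stimulated response element that interferon-activated factors bind, a pair of GAAA runs with any 2 bases between them. Of the 38 genes, 30 had a RefSeq promoter window, and 18 of these (60%) held the motif, against 3.98% of all genes with a window. Of the 4 members with the smallest p, Gbp2 and Trim30a held it and Nmi and Ifi47 did not. The capitals mark the match, which on this strand reads as the reverse complement. The windows are from GRCm38.p6, chr3:142620413-142620712 on the plus strand for Gbp2 and chr7:104465144-104465443 on the minus strand for Trim30a, which has 2 windows.
Gbp2: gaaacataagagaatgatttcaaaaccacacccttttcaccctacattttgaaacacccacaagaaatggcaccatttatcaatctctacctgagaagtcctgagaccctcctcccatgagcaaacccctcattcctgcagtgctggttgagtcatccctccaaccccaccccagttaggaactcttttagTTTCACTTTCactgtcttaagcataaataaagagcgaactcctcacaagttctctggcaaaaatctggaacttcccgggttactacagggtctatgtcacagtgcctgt
Trim30a: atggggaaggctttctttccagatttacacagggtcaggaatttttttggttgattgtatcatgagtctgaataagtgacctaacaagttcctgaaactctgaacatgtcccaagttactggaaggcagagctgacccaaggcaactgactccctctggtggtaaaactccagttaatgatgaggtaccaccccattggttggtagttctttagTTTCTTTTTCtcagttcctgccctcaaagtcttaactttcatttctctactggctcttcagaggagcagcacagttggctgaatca
Trim30a, a TRIM family gene induced by TLR ligands and interferon, read 5570 after KLA and 1789 untreated in siGABP cells, against 6414 after KLA and 1343 untreated in siCtrl cells, a difference in response of -0.63 ± 0.142 (adjusted p = 0.35). Among all genes with a negative difference of 1.5-fold or more, 9 of 91 windows (9.89%) held the motif, and among those with a positive one, 1 of 21 (4.76%). A match is a run of letters and was not tested as a site.

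The NF-kB targets and feedback regulators had a median difference of -0.23 over 26 genes, with 21 negative (80.8%, against 50.4% of all genes tested) and 9 (34.6%, against 4.88%) negative at an unadjusted p under 0.05. Against the siMLL response the median was -0.13. In contrast to the interferon-stimulated genes, the larger part lay at the KLA level, with a median siGABP minus siCtrl difference of -0.17 after KLA and 0.05 in untreated cells. The siGABP KLA array was the lowest of 3 in 12 of the 26 genes (46.2%, against 37.8% of all genes), and the siCtrl KLA array was the highest in 16 (61.5%, against 37% of all genes). After KLA 4 of the 26 genes were lower at the adjusted threshold (15.4%, against 3.34% of all genes tested). Nfkb2, which encodes the p100 precursor of an NF-kB subunit, read 1973 after KLA in siGABP cells, against 3122 in siCtrl cells and 2371 in siMLL cells, and was lower after KLA (-0.67, adjusted p = 0.0183). Bcl3, a nuclear partner of NF-kB, read 228 after KLA in siGABP cells, against 358 in siCtrl cells and 269.7 in siMLL cells (-0.74, adjusted p = 0.037). Cish, a feedback inhibitor of cytokine receptors, was lower after KLA as well (-0.45, adjusted p = 0.0436). Sod2, the mitochondrial superoxide dismutase, had a difference of -0.62 ± 0.135 (adjusted p = 0.35) from the untreated level, at 2519.9 in siGABP cells, against 1791 in siCtrl cells and 2159, 2090.2 and 2176 on the siMLL arrays.

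The cytokines and chemokines as a list had a median difference of -0.00 over 28 genes, 14 of them negative. At an unadjusted p under 0.05, 8 were negative (28.6%, against 4.88% of all genes tested) and 1, Ccl2, was positive (3.57%, against 3.62%). Cxcl9, a chemokine for activated T cells, read 993 after KLA in siGABP cells, against 1856 in siCtrl cells and 1859.7 in siMLL cells, while untreated values were 139.8 in siGABP cells and 141 in siCtrl cells. Its difference in response was -0.91 ± 0.159 (adjusted p = 0.26), and the KLA level was lower (-0.93, adjusted p = 0.00932). Against the siMLL response it was -0.99 ± 0.145 (adjusted p = 0.30). Ccl12, a monocyte chemokine, gave -0.68 ± 0.144 (adjusted p = 0.34) from both levels. Ccl2, another monocyte chemokine, gave 0.65 ± 0.143 (adjusted p = 0.35), with the untreated level lower (-0.61, adjusted p = 0.0408) at 258 in siGABP cells, against 377 in siCtrl cells and 272, 288 and 288 on the siMLL arrays.

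The immediate/early and late TLR4 target genes, lists the study drew from separate arrays, had medians below 0 too. The study sorted these genes by expression at an earlier and a later time of KLA than the 6 h used here. Of 97 immediate/early genes measured, 65 were negative (67%, against 50.4% of all genes tested), 29 (29.9%, against 4.88%) at an unadjusted p under 0.05, and the median was -0.17, with -0.11 after KLA and 0.02 in untreated cells. The median response of the list was 1.94 in siGABP cells, against 2.30 in siCtrl cells and 2.02 in siMLL cells, and the median difference from the siMLL response was -0.04. The siGABP KLA array was the lowest of 3 for 43 of the 97 genes (44.3%), and the siCtrl KLA array was the highest for 52 (53.6%, against 37% of all genes). Slc2a6 was the 1 gene of the list called. Pvr, the poliovirus receptor homologue, read 221 after KLA in siGABP cells, against 460.1 in siCtrl cells and 395 in siMLL cells, a difference in response of -0.90 ± 0.164 (adjusted p = 0.26). Clec4e, which encodes the C-type lectin Mincle, was higher in siGABP cells at both levels. It read 16268 after KLA and 2252 untreated in siGABP cells, against 9253 after KLA and 698 untreated in siCtrl cells, with 11601 after KLA and 859, 874 and 826 untreated on the siMLL arrays. It was higher by 1.74 in untreated cells (adjusted p = 0.000876) and by 0.82 after KLA (adjusted p = 0.00922), so that the response was smaller, at -0.92 ± 0.139 (adjusted p = 0.20). A second Clec4e probe gave -0.81.

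Of 85 late genes measured, 61 were negative (71.8%, against 50.4% of all genes tested), 17 (20%, against 4.88%) at an unadjusted p under 0.05, and the median was -0.14 (-0.11 against the siMLL response), with -0.19 to -0.08 over the alternatives. Their medians were 0.00 after KLA and 0.12 in untreated cells, and the siGABP untreated array was the highest of 5 for 45 of the 85 genes (52.9%, against 20.6% of all genes). The late list shares 14 genes with the interferon-stimulated genes, 16.5% of the late and 36.8% of the interferon-stimulated list. The immediate/early list shares 15 genes with the NF-kB list, 15.5% of the immediate/early and 57.7% of the NF-kB list, so these lists are not separate evidence. Vnn3, a pantetheinase family gene of the late list, gave -0.71 ± 0.138 (adjusted p = 0.30) and -0.64 on its second probe.

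Antigen presentation genes of MHC class I were negative in 13 of 15 (86.7%, against 50.4% of all genes), with a median of -0.17. Their median siGABP minus siCtrl difference was 0.18 in untreated cells and -0.07 after KLA. The siGABP untreated array was the highest of 5 for 9 of the 15 genes (60%, against 20.6% of all genes). A negative value at an unadjusted p under 0.05 was found for 3 (20%, against 4.88% of all genes). They came from the KLA level, both levels and the untreated level, in the order given next. These were H2-T10, a nonclassical class I gene, at -0.47 ± 0.136, the immunoproteasome subunit gene Psmb10 at -0.44 ± 0.140 and the peptide transporter gene Tap1 at -0.42 ± 0.149 (adjusted p = 0.48, 0.52 and 0.54), with -0.23 on a second Psmb10 probe. Of 24 cell cycle genes, 11 were negative and the median was 0.02, but Cdkn1a, which encodes the inhibitor p21, gave -0.92 ± 0.142 (adjusted p = 0.22). Cdkn1a read 7123 after KLA and 1660.1 untreated in siGABP cells, against 9534 after KLA and 1187 untreated in siCtrl cells, and its second probe gave -0.56. Ccne1 and Ccnd2, the genes of cyclins E1 and D2, were lower after KLA (-0.54, adjusted p = 0.0297, and -0.67, adjusted p = 0.0295) and gave differences in response of -0.68 ± 0.150 and -0.65 ± 0.187.

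The lists linked to GABP in textbooks had medians near that of all genes. The GABP target genes had a median difference of -0.05 over 29 genes, 19 of them negative (65.5%, against 50.4% of all genes tested). Of the 29, 1 (3.45%) had an unadjusted p under 0.05, against 8.5% of all genes in either direction. That gene was Tfb1m, a mitochondrial rRNA methyltransferase, at -0.76 ± 0.132 (adjusted p = 0.26). It read 202 after KLA and 256 untreated in siGABP cells, against 254 after KLA and 205 untreated in siCtrl cells. The subunits of oxidative phosphorylation had a median of -0.01 over 50 genes measured of 75 listed. Most ATP synthase subunits of that list were not matched by symbol, so the median says little about them. The median was 0.05 over 69 genes for the mitochondrial ribosomal proteins and -0.04 over 67 genes for the cytosolic ribosomal proteins. At an unadjusted p under 0.05, 4 of the 50, 2 of the 69 and 4 of the 67 genes differed. The cytosolic ribosomal proteins were lower in siGABP cells than in siCtrl cells in 53 of 67 genes after KLA (79.1%), against 52.4% of all genes, and higher in 14 of 67 in untreated cells (20.9%), against 48.2% of all genes.

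**Figure D5:**
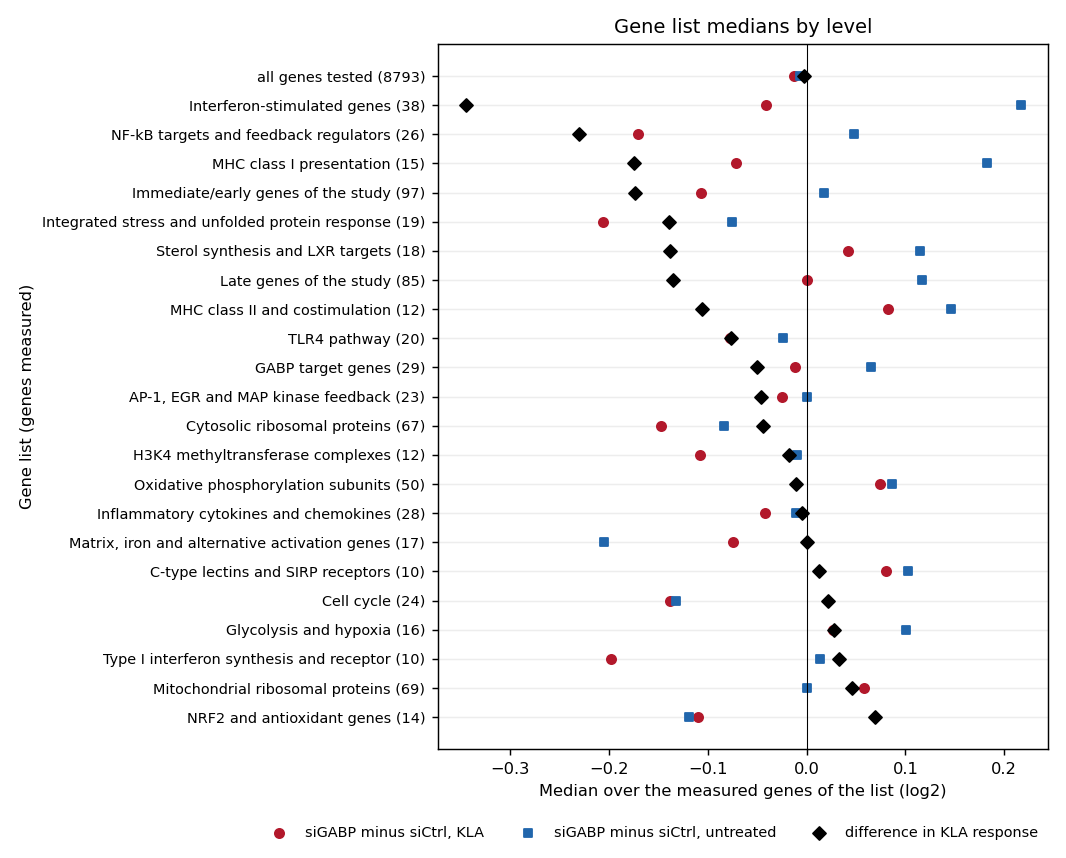
Median over the measured genes of each list of the siGABP minus siCtrl difference (log2) after KLA (red circles) and in untreated cells (blue squares) and of the difference in KLA response (black diamonds), with the number of genes measured in brackets. The interferon-stimulated genes have the lowest diamond at -0.35 with the square at 0.22, and the NF-kB list has its circle at -0.17.

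The remaining lists of 10 or more genes had medians between -0.14 and 0.07. In the TLR4 pathway list (20 genes, median -0.08), the adaptor kinase gene Irak2 gave 0.70 ± 0.138 (adjusted p = 0.30) and Map3k8, which encodes the kinase Tpl2, gave -0.46 ± 0.144 (adjusted p = 0.51), each from the untreated level. In the integrated stress list (19 genes, median -0.14, with -0.18 to -0.01 over the alternatives), Chac1, a glutathione-degrading enzyme, was lower after KLA (-0.66, adjusted p = 0.0149) and gave -0.58 ± 0.135. Hspa5, the chaperone BiP, gave -0.91 with an SE of 0.329, since its siMLL untreated arrays read 500.6, 351 and 463.5. Among iron genes, Slc40a1, the iron exporter ferroportin, read 192 after KLA and 609 untreated in siGABP cells, against 281 after KLA and 1638 untreated in siCtrl cells, with 777, 780.4 and 898 on the siMLL untreated arrays. It was lower in untreated cells (-1.48, adjusted p = 0.00862) and after KLA (-0.64, adjusted p = 0.0313), and its difference was 0.84 ± 0.183 (adjusted p = 0.35). Vegfa, the vascular growth factor, gave -0.76 ± 0.138, with a larger fall by KLA in siGABP cells (3.16-fold, against 1.87-fold in siCtrl cells). It belongs to the glycolysis and hypoxia list (16 genes, median 0.03), where 8 genes were positive and 8 negative in the difference in response. At the KLA level 5 of the 16 were higher in siGABP cells at the adjusted threshold (31.2%, against 3.56% of all genes tested). At that level 1 was lower (6.25%, against 3.34% of all genes tested). Hk1 (0.37) and Aldoa (0.34) of that list went the other way and were higher in siGABP cells after KLA, by 0.59 and 0.49. Fasn, fatty acid synthase, gave -0.65 ± 0.173, also with a larger fall (4.04-fold in siGABP cells, against 2.57-fold in siCtrl cells). Neither Vegfa nor Fasn was called.

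Markers of macrophages were measured on every array. All 8 on the array passed the filter. Their summed intensity lay between 34468 and 43236. Lyz2 alone gave 32379 after KLA and 32379 untreated in siGABP cells, against 23069 after KLA and 33886 untreated in siCtrl cells. A dimmer Lyz2 probe went the other way after KLA, at 239 in siGABP cells, against 299 in siCtrl cells. Of the 8 markers, 3 were lower in siGABP than in siCtrl cells after KLA (37.5%, against 52.4% of all genes), among them Ptprc at 445 against 713. The integrin gene Itgam lay between 152 and 188, near the median of the array. Of other cell types, none of 3 B cell markers passed. Passing were 3 of 8 neutrophil, 3 of 7 T and natural killer cell, 3 of 9 mast cell, basophil and eosinophil and 3 of 7 dendritic cell markers. Of all genes on the array, 8793 of 15946 passed, so passing does not show that a cell type was present. No T and natural killer, mast cell group or dendritic cell marker read above 171.5, 180.9 and 199.9, in that order, on any array. The neutrophil marker S100a8 was brighter, at 688 to 919.5. Of 10 mesothelial and fibroblast markers 8 passed, and the sum over all 10 was 5076 after KLA and 5408 untreated in siGABP cells, against 4927 after KLA and 6248 untreated in siCtrl cells, with 5163 to 5461 on the siMLL untreated arrays. The siCtrl untreated array was the highest of the 5 for 6 of the 8 that passed (75%, against 23.7% of all genes tested), the array that also stood apart for Slc2a6, and the part of these cells in that difference was not tested. In such bulk RNA, fewer cells of a type and less RNA per cell cannot be told apart.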

How the data were processed

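The authors deposited intensity values on a linear scale from 8 Illumina arrays, traced to BeadStudio 1.5.1.3 by the submitters' processing notes. The 23978 probe intensities were the same on every array once sorted (68.5 to 62999, median 139.5), as after quantile normalization. The other deposited table has 16 columns whose names match no label, and these were not used here. Values were background-corrected (normexp, offset 50), quantile normalized and put on the log2 scale. The offset and remaining background understate the folds of dim genes. Probes with a mean above the median of all probes (6.73) were kept, and the brightest probe stood for a gene, which gave 8793 genes. A mean per group was fitted with limma 3.58.1 in R 4.3.3 (2 residual and 5.56 prior degrees of freedom) and tested two-sided. The fit was checked on simulated data. The simulation gave every array the spread fitted from the siMLL untreated arrays, so it cannot check that assumption for the siGABP and siCtrl arrays. Alternatives changed the offset, filter, variance trend, spread, probe choice and scaling and left out each replicate. The number of arrays limits the precision.

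Named were the called genes, filled to 5 each way by the smallest p, the GABP subunits, standard TLR4 targets and up to 4 members of each list with an unadjusted p under 0.05. The members and lists were chosen with earlier results of these data known. Genes were named from the platform annotation, which paired 20917 probes with 1 gene, 1 with several and 3060 with none. Promoter sequences are from RefSeq.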

Additional observations from a re-analysis of the deposited data

Results flagged for a closer look

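Slc2a6 was the gene whose KLA response differed between siGABP and siCtrl cells by the test of the difference itself, at -2.02 on the log2 scale. The response was 2.63 in siGABP cells, against 4.64 in siCtrl cells and 3.02 in siMLL cells. In untreated cells its intensity was 1844 in siGABP cells, against 541 in siCtrl cells, and each of these values is 1 array.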

How the results depend on the processing

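No paired analysis was possible because only the siMLL untreated arrays carry replicate numbers. Slc2a6 was called in 10 of 12 alternatives. With an offset of 16 the count for the difference in response, also within the lists, was 0 (Slc2a6 -2.09, adjusted p = 0.0874), and 0 in an additive model, which gives siCtrl and siMLL cells 1 shared KLA response (-1.04, adjusted p = 0.65), while leaving out 1 replicate gave 1 to 1. The 109 genes called in untreated cells became 201 without background correction, 8 with an offset of 16, 230 with an offset of 100, 26 without a filter, 218 with a variance trend and 212 in the additive model, and 40 to 208 without 1 replicate (40 without siMLL replicate 3 and 208 without siMLL replicate 2). The 607 after KLA became 298 with an offset of 16, 216 without a filter and 336 to 1209 without 1 replicate (the same 2 arrays). Against siMLL, leaving out 1 replicate gave 0 to 2 genes (2 without siMLL replicate 2), and the additive model was not run. In alternatives chosen after seeing the data, the 8 genes of 2-fold or more became 4 without background correction, 19 with an offset of 16, 2 with an offset of 100, 5 with an upper quartile filter and 3 in the additive model. The 137 of 1.5-fold or more became 307 with an offset of 16, 83 with an offset of 100, 231 without a filter, 88 with an upper quartile filter and 54 in the additive model. Signs turned for Gabpb1 (0.0404 without background correction, 0.065 with an offset of 100, 0.25 with the median of probes), Gabpa (0.17 with the median of probes), Slc7a11 (0.0184 with an offset of 16), and Cxcl10 (-0.10) and Cenpa (-0.0661) in the additive model. Of 1041 values of 89 named genes, 1032 kept direction and side of the threshold. Leaving out a siMLL replicate or fitting a variance trend cannot change a siGABP minus siCtrl difference, only its p-value. All named genes but Slc2a6 were uncalled from the start. Neither this count nor the 10 of 12 alternatives for Slc2a6 therefore tests the siGABP and siCtrl arrays, which have no replicates. The interferon-stimulated median ranged from -0.39 to -0.31. The causes were not tested.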
